A study of Canis lupus familiaris with 8 samples.

Results

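The splicing and RNA processing factors of the dog left ventricle were followed in 257 probe sets of 143 genes on the Affymetrix Canine Genome Array. They were taken by gene symbol alone, as the probe sets whose single platform symbol names a small nuclear ribonucleoprotein (snRNP), branch site, SR, hnRNP, RBM, CELF, MBNL, ELAVL, FUBP, cleavage and polyadenylation, poly(A) binding or exosome protein, a DEAD or DEAH box helicase, or a subunit of RNA polymerase I, II or III. They make up 257 of the 23836 probe sets tested, of which 10549 carry a single symbol. No probe set was left out for a low signal, and 175 of the 257 lay above the median level of all probe sets. A further 7 probe sets carry several symbols of which 1 or more would have been taken, and these were not members.

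Total RNA of 8 male mongrel dogs was measured, with 1 array per dog. The control dogs were D5, D6, D7 and D8. The dogs with diabetes mellitus (DM dogs) were 0292, 0294, 1087 and 1111, and alloxan, which destroys the beta cells of the pancreas that make insulin, had been injected into a vein at 40 to 60 mg/kg. Their left ventricles were taken 4 weeks later. Dogs of both groups had been instrumented by surgery for the recording of blood pressure and flow, some dogs could receive alloxan again when their glucose stayed low, and only dogs that were then hyperglycaemic were kept in the DM group. The dogs are outbred, so they share no defined genotype, and the general description in the deposit counts more dogs than were hybridised. The question of the comparison is how the left ventricle of dogs with alloxan diabetes differs in gene expression from that of control dogs.

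Introns are removed from a primary transcript by the spliceosome, which is assembled from snRNPs on the splice sites and the branch site of each intron. SR proteins mostly favour the use of a nearby exon, many hnRNPs oppose it, and tissue regulators of the RBM, CELF, MBNL and RBFOX families shift the choice between exons. In heart muscle such regulators set the exons of titin and of other sarcomere and calcium handling transcripts, and RBM20 and MBNL1 are known from inherited or repeat-expansion disease of the heart. The 3′ end of the transcript is then cleaved and given a poly(A) tail, and the nuclear exosome degrades RNA that is faulty or spent.

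Levels are given as log2 of the deposited MAS5 signal after quantile normalization between arrays and addition of an offset of 16, so that the lowest possible value is 4. Values of single dogs follow the order D5, D6, D7 and D8 for control dogs and 0292, 0294, 1087 and 1111 for DM dogs. A fold change is the DM mean minus the control mean on this log2 scale, with the standard error (SE) of limma, and the adjusted p is that of Benjamini-Hochberg over all 23836 probe sets. Levels of different probe sets are not comparable with each other. The genes given with their levels are mostly the 29 that a rule names, by the smallest p in each role or from a list of central and heart regulators, and the further ones were chosen after their values were seen. The 4 dogs per group limit the precision, and the p values measure the spread between these dogs.

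The arrays differed in other ways that touch the values below. The hybridization controls, 18 probe sets for transcripts added in fixed amounts, had a mean log2 deposited signal of 13.88 ± 1.27 in control and 16.32 ± 1.05 in DM dogs (mean ± SD of 4 dogs, p = 0.0571 in a two-sided exact permutation test), with 15.77 in control dog D8 and 13.09 to 13.36 in the other control dogs. In DM dogs it ran from 15.17 to 17.72, with the highest value in 0292, so D8 lay within the DM range. The median deposited signal of the arrays was 96.0, 104.6, 112.4 and 177.3 in control dogs. In DM dogs it was 316.9, 199.2, 170.6 and 113.2 (exact permutation test, p = 0.114), so D8 and 0292 were the highest of their groups. The 3′ minus 5′ signal of actin was 3.31 ± 2.34 and 5.62 ± 1.56 log2 (exact permutation test, p = 0.171), and that of GAPDH was 4.36 ± 1.10 and 1.76 ± 1.03 (p = 0.0286 in the same exact test, which cannot go lower with 4 dogs in either group). The summed level of the 9 cardiomyocyte markers measured, of 10 listed, was 18.07 to 19.25 log2 in control and 16.91 to 17.61 in DM dogs. All 9 markers were below the control mean, 7 of them at an unadjusted limma p under 0.05, with a median of −2.03 log2. Markers of macrophages and monocytes had overlapping summed levels of 10.96 to 12.27 in control and 11.18 to 13.32 in DM dogs. Of these 5 of 7 were above 0, 1 at an unadjusted limma p under 0.05, with a median of 0.51. Endothelial markers overlapped as well (14.62 to 15.41 and 13.36 to 15.54). Of these 4 of 5 were below 0, 1 at such a p, with a median of −1.20. Those of fibroblasts, smooth muscle cells, other leukocytes and adipocytes also overlapped between the groups. The part of these measures in the results below was not tested. In tissue RNA, fewer cells of a type and less RNA per cell cannot be told apart.

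Of the 257 probe sets, 0 passed an adjusted p of 0.05 in limma in either direction, while over all probe sets 0% were called higher and 0.0168% lower, and over those with a single gene symbol 0% and 0.0284%. At an unadjusted p under 0.05, 20 probe sets had higher and 31 lower values in DM dogs. These are 7.78% and 12.1% of the members, against 7.8% and 8.91% of all probe sets and 8% and 11.5% of those with a single symbol, so the share of members in either direction was close to that of other annotated genes. At the criteria of the study's methods, a nominal p of at most 0.01 with a change of at least 2-fold, 13 members were higher (5.06%, against 2.45% of all and 2.74% with a single symbol) and 9 lower (3.5%, against 2.52% and 3.46%). The 4 control and 4 DM dogs did not overlap in 21 members that were higher in DM dogs (8.17%, against 4.93% of all and 5.4% with a single symbol) and in 27 that were lower (10.5%, against 5.87% and 7.79%). The fold change lay below 0 in 145 members (56.4%, against 48.1% of all and 51.6% of probe sets with a single symbol) and above 0 in 112 (43.6%, against 51.9% and 48.4%).

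The median fold change was −0.19 log2 over the members, 0.06 over all probe sets and −0.05 over those with a single symbol. The median of all probe sets was itself set by the scaling. It was 0.34 without quantile normalization, −0.25 with median centring, 0.02 with cyclic loess and −1.65 when the arrays were scaled to the hybridization controls. Relative to that median the members' median was −0.25, and it lay between −0.33 and −0.12 in the 6 scalings and offsets tried. Median centring is not counted among these, since it shifts whole arrays and gives the same relative values as no quantile normalization. With only the 11918 probe sets above the median level, which held 175 members, the members' median relative to all was −0.032. Fold changes lay on both sides of 0 in every role, as the plot of fold changes by role shows.

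**Figure D1:**
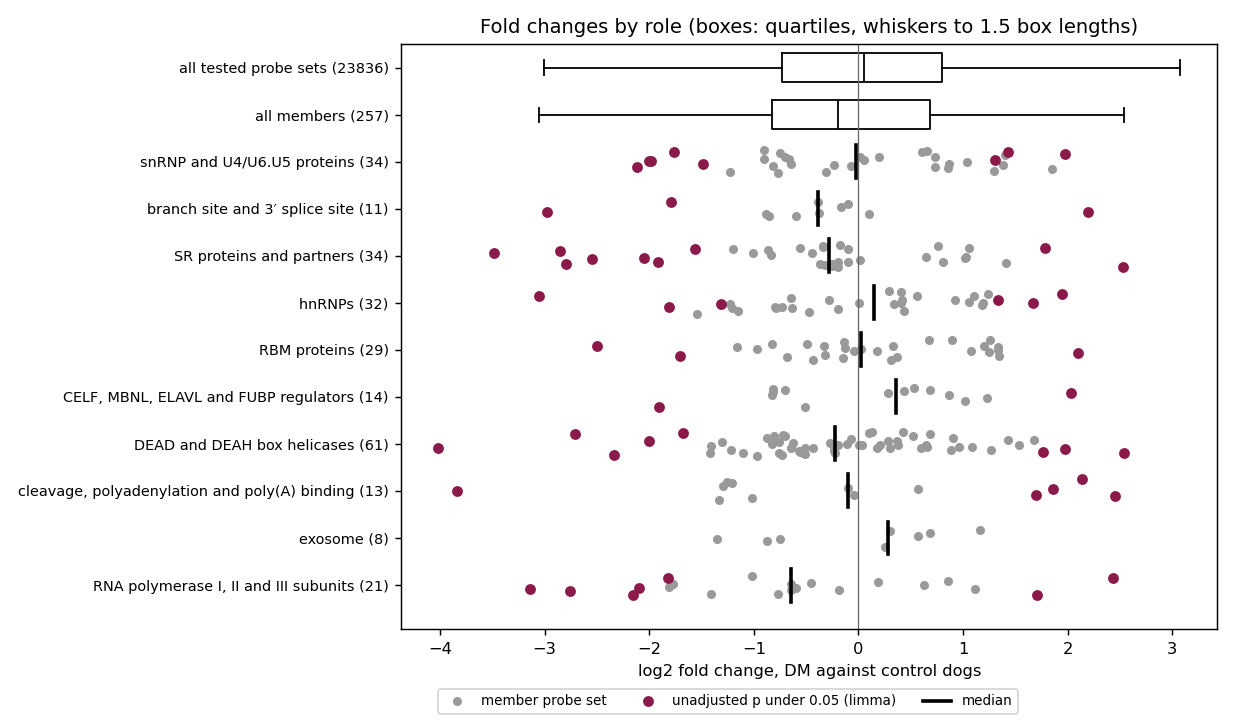
Difference of the DM from the control mean (log2 fold change) for each of the 257 member probe sets, sorted by role in RNA processing, with the number of probe sets in brackets; dark points have an unadjusted limma p under 0.05, short black bars are medians, and the top boxes show all 23836 probe sets and all members. Points lie on both sides of 0 in every role, with medians from −0.65 (RNA polymerase subunits) to 0.36 (CELF, MBNL, ELAVL and FUBP regulators).

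The smallest p values of the members belonged to an hnRNP, an RNA polymerase subunit and a poly(A) binding protein. HNRNPC encodes a core hnRNP that binds uridine-rich stretches of nascent transcripts. Its probe set 1587738_at had levels of 8.29, 8.63, 8.10 and 6.93 in control dogs and 5.06, 5.08, 4.80 and 4.78 in DM dogs. Every DM dog lay below every control dog, D8 was the lowest control dog, and the DM values were close to the floor of 4. The fold change was −3.06 (SE 0.58), an 8.32-fold lower signal, with an adjusted p of 0.0608 in limma. The size depends on the offset at such low signals, with −1.96 at an offset of 64 and −4.04 with none. Over 18 alternatives the adjusted p of HNRNPC ran from 0.00127 to 0.27. The second probe set of HNRNPC had a fold change of −0.64.

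POLR3K, a small subunit of RNA polymerase III, the enzyme that makes transfer RNAs and the U6 spliceosomal RNA, had levels of 8.24, 8.47, 8.49 and 8.57 in control dogs and 4.86, 4.64, 5.12 and 6.60 in DM dogs (1594403_at). The control dogs were close to each other, and all DM dogs were lower, with 1111 the nearest to them. The fold change was −3.14 (SE 0.60, adjusted p = 0.0608 in limma), and over 18 alternatives the adjusted p ran from 0.00104 to 0.27. Since 0292, 0294 and 1087 were near the floor, the size depends on the offset, with −2.13 at an offset of 64 and −4.01 with none. The other POLR3K probe sets had fold changes of −2.10, again without overlap between the groups, and −1.81. PABPC1L, a relative of the cytoplasmic poly(A) binding protein, had levels of 10.70, 11.01, 10.06 and 8.48 in control and 7.08, 4.86, 7.12 and 5.87 in DM dogs. The groups did not overlap, and D8 was again the control dog nearest to the DM dogs. The fold change of PABPC1L was −3.84 (SE 0.74, adjusted p = 0.0608 in limma), with a range of 0.000385 to 0.27 over 20 alternatives.

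DDX47, a DEAD box helicase of ribosomal RNA processing, had the smallest p among the members with higher values in DM dogs. Its levels were 4.92, 4.94, 4.94 and 4.56 in control dogs and 7.69, 7.47, 7.61 and 6.75 in DM dogs. All control dogs were close to the floor and all DM dogs were well above them. The fold change was 2.54 (SE 0.55, adjusted p = 0.0743 in limma, range 0.0292 to 0.287 over 19 alternatives), and it was 1.49 at an offset of 64 and 3.59 with none. DDX47 was also the 1 member that passed after Benjamini-Hochberg adjustment of a two-class t-test with pooled variance on these values. The study's methods name variance stabilization as well, which was not applied here. The share of all probe sets that passed the adjusted t-test was not computed. The call was lost with cyclic loess, median centring, no offset, an offset of 64 or no quantile normalization.

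**Figure D2:**
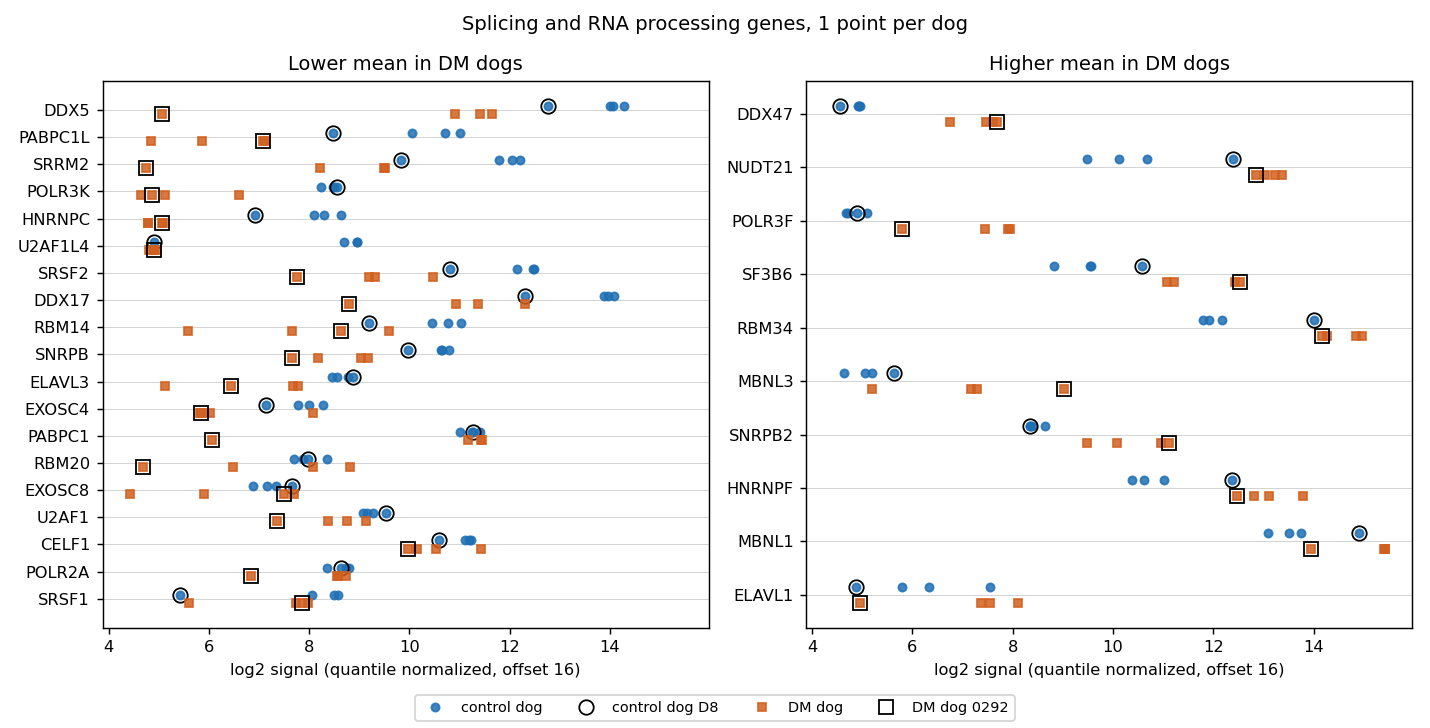
Level of 29 splicing and RNA processing genes in each dog (log2 signal after quantile normalization, offset 16), on the left genes with a lower and on the right genes with a higher mean in DM dogs, sorted by the size of the difference; blue circles are control dogs, orange squares DM dogs, and open rings mark control dog D8 and DM dog 0292. For PABPC1L, SRSF2 and NUDT21 the ring of D8 lies between the other control dogs and the DM dogs, and for DDX5 and PABPC1 the point of 0292, at 5.07 and 6.07, stands apart from the other DM dogs.

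In the group of snRNP and U4/U6.U5 proteins, which takes the SNRP, LSM and PRPF genes together, 17 of 34 probe sets were above 0 and 17 below. The median was −0.03. Relative to all probe sets that median was below 0 in 5 of 6 scalings and offsets, 0.40 with cyclic loess and 0.05 with only probe sets above the median level. SNRPB2, a U2 snRNP protein, had levels of 8.39, 8.34, 8.64 and 8.34 in control and 11.11, 10.95, 10.07 and 9.48 in DM dogs. SNRPB, which encodes the Sm proteins B and B′ shared by most snRNPs, had lower DM values, with 10.65, 10.79, 10.64 and 9.97 in control and 7.65, 9.03, 8.18 and 9.18 in DM dogs. The groups did not overlap in either gene, and D8 was the lowest control dog in SNRPB. The fold changes were 1.97 (SE 0.59, adjusted p = 0.131 in limma) for SNRPB2 and −2.00 (SE 0.59, adjusted p = 0.129) for SNRPB. When the arrays were scaled to the hybridization controls, which moved the median of all probe sets to −1.65, the difference in SNRPB2 turned to −0.46.

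The SNRP genes had 7 of 11 probe sets above 0, with a median of 0.86. Besides SNRPB2, the Sm protein genes SNRPD1 (1.43 in 1583376_at) and SNRPE (1.30) had higher values in DM dogs at an unadjusted p under 0.05, both without overlap. The other SNRPD1 probe set had 1.40, and there 0292 was below all control dogs. SNRPE levels were 11.24, 10.93, 11.49 and 11.96 in control dogs and 12.43, 13.25, 12.83 and 12.32 in DM dogs, so the gap between the nearest dogs was narrow. The LSM genes had 6 of 10 above 0 and a median of 0.04. LSM1, of the cytoplasmic ring that starts mRNA decay, and LSM2, shared by that ring and the nuclear ring on U6 RNA, were lower without overlap, with fold changes of −2.11 and −1.99. The pattern of symbols also takes LSM11, LSM12 and LSM14A, which are not parts of these rings. Of the PRPF genes, which include proteins of the U4/U6.U5 particle, 9 of 13 probe sets were below 0 with a median of −0.66. All 4 probe sets of the kinase PRPF4B had fold changes between −0.90 and −0.65, with unadjusted p values of 0.284 to 0.403 in limma.

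Proteins that recognise the branch site and the 3′ splice site had 9 of 11 probe sets below 0 and a median of −0.39. Relative to all probe sets that median was −0.82 to −0.36 in the 6 scalings and offsets, but −0.10 with only probe sets above the median level. U2AF1, the small subunit that reads the AG at the 3′ splice site, had levels of 9.16, 9.27, 9.08 and 9.54 in control and 7.36, 8.76, 8.38 and 9.13 in DM dogs. Only 1111 among the DM dogs reached the control range, and the fold change was −0.85 (SE 0.59, adjusted p = 0.493 in limma). U2AF1L4, a close paralogue of U2AF1, had 8.95, 8.95, 8.70 and 4.91 in control and 4.90, 4.91, 4.97 and 4.81 in DM dogs. Here D8 had the level of the DM dogs, while the other control dogs lay close together. The fold change of U2AF1L4 was −2.98 (SE 0.85, adjusted p = 0.122 in limma), and without D8 it was −3.98 with an adjusted p of 0.0231, the range over 19 alternatives being 0.00248 to 0.364. All its DM dogs were near the floor, and it was −2.04 at an offset of 64 and −3.78 with no offset.

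SF3B6, the U2 snRNP protein that touches the branch site adenosine, was higher in DM dogs in its only probe set. Its levels were 9.53, 8.83, 9.55 and 10.58 in control dogs and 12.54, 12.43, 11.22 and 11.08 in DM dogs. The groups did not overlap, and D8 was the highest control dog. SF3B6 had a fold change of 2.19 (SE 0.63, adjusted p = 0.126 in limma), but it was −0.43 when the arrays were scaled to the hybridization controls. SF3B5, another small protein of the same complex, had 3 probe sets with fold changes of −1.79, −0.17 and 0.10.

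SR proteins and their partners had 24 of 34 probe sets below 0 and a median of −0.28. Relative to all probe sets it was −0.41 to −0.19 in the 6 scalings and offsets, but −0.060 with only probe sets above the median level. The median was 0.09 without quantile normalization, while that of all probe sets was 0.34. At an unadjusted p under 0.05, 7 probe sets had lower values (20.6%, against 8.91% of all and 11.5% with a single symbol) and 2 had higher values (5.88%, against 7.8% and 8%). In the other roles the share of lower values ran from 0% (exosome) to 23.8% (RNA polymerase subunits). SRSF2, an SR protein that also acts in transcription elongation, had 12.47, 12.49, 12.15 and 10.81 in control and 7.76, 9.20, 9.31 and 10.48 in DM dogs. The groups did not overlap, though D8 and 1111 were close to each other. SRSF2 had a fold change of −2.79 (SE 0.70, adjusted p = 0.0923 in limma), and its second probe set had −0.34.

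SRRM2, a large scaffold protein of nuclear speckles, had 11.80, 12.05, 12.20 and 9.84 in control and 4.74, 9.51, 8.22 and 9.49 in DM dogs. The groups were separated by the gap between D8 and the highest DM dogs alone, and 0292 was far below the other DM dogs. SRRM2 had a fold change of −3.48 (SE 0.99, adjusted p = 0.123 in limma) and −2.57 without 0292. SRSF5, an SR protein with broad roles in exon choice, had 13.18, 13.19, 13.22 and 13.04 in control dogs and 8.06, 9.47, 11.59 and 12.09 in DM dogs, so the control dogs were nearly equal and the DM dogs were spread over a wide range below them. Its fold change was −2.85 (SE 0.82, adjusted p = 0.124 in limma), while its other probe sets had −0.10 and 0.01. SRSF1, the first SR protein described, had 8.50, 8.06, 8.57 and 5.43 in control and 7.86, 7.74, 5.61 and 7.99 in DM dogs. In each group 1 dog lay far below the rest, and the fold change of −0.34 (SE 0.82, adjusted p = 0.867 in limma) had no stable sign.

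The hnRNP group was evenly divided, with 17 of 32 probe sets above 0 and a median of 0.15, whose sign relative to all probe sets changed with the scaling (from −0.14 to 0.18). HNRNPF, which binds runs of G near splice sites, had 10.62, 10.38, 11.01 and 12.38 in control and 12.47, 13.11, 13.80 and 12.81 in DM dogs. The DM dogs were all higher, but D8 was almost level with 0292. HNRNPF had a fold change of 1.95 (SE 0.63, adjusted p = 0.157 in limma), which turned to −0.64 with scaling to the hybridization controls, and the other probe sets of HNRNPF had −0.80 and −1.15. HNRNPU, a nuclear scaffold protein, had higher DM values without overlap in both of its probe sets, with 1.67 and 0.44. All 4 probe sets of HNRNPH1 were above 0, between 0.40 and 1.19, and each of them overlapped between the groups. HNRNPL and HNRNPDL were lower at an unadjusted p under 0.05 in a single probe set each (−1.81 and −1.32). The 4 probe sets of HNRNPDL ran from −1.32 to 1.19, with 3 below 0 and 1 above.

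Of the RBM proteins, 15 of 29 probe sets were above 0 and the median was 0.02, with a sign relative to all probe sets that changed with the scaling (−0.10 to 0.32). RBM20, the heart regulator of titin splicing, had 7.87, 7.70, 8.37 and 7.98 in control and 4.69, 8.08, 8.81 and 6.48 in DM dogs. Among the DM dogs, 0292 and 1111 were below all control dogs while 1087 was above all of them. RBM20 had a fold change of −0.96 (SE 0.82, adjusted p = 0.585 in limma), and without 0292 it was −0.13. RBM34, an RNA binding protein of the nucleolus, had 11.79, 11.91, 12.18 and 14.00 in control and 14.17, 14.97, 14.85 and 14.28 in DM dogs. D8 stood next to the DM dogs and the other control dogs were clearly lower, and the fold change was 2.10 (SE 0.64, adjusted p = 0.139 in limma) but −0.29 with scaling to the hybridization controls. RBM14, a paraspeckle protein and coactivator, was lower in both of its probe sets at an unadjusted p under 0.05. The probe set 1584715_at had 10.77, 11.03, 10.46 and 9.20 in control and 8.63, 5.58, 7.65 and 9.61 in DM dogs, where 1111 exceeded D8, and a fold change of −2.50 (SE 0.83, adjusted p = 0.164 in limma). The other had a fold change of −1.70 without overlap.

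The regulators of the CELF, MBNL, ELAVL and FUBP families had 8 of 14 probe sets above 0 and a median of 0.36, which relative to all probe sets was below 0 in 2 of 6 scalings and offsets. MBNL1, which drives the switch from fetal to adult exons in muscle, had 13.52, 13.10, 13.76 and 14.91 in control and 13.95, 15.42, 15.41 and 15.42 in DM dogs. The DM dogs other than 0292 were above all control dogs, and 0292 was below D8. MBNL1 had a fold change of 1.23 (SE 0.64, adjusted p = 0.354 in limma), −1.01 with scaling to the hybridization controls, and its other probe sets had 1.02, 0.44 and −0.82. CELF1, which opposes MBNL1 at many exons, had 11.11, 11.19, 11.24 and 10.59 in control and 9.97, 10.16, 10.54 and 11.42 in DM dogs. Here 0292, 0294 and 1087 were below all control dogs and 1111 above them, with a fold change of −0.51 (SE 0.58, adjusted p = 0.695 in limma).

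MBNL3, a paralogue expressed mostly outside adult muscle, had 5.06, 4.63, 5.20 and 5.63 in control and 9.02, 7.29, 7.16 and 5.20 in DM dogs. Apart from 1111, whose level was that of the control dogs, the DM dogs were higher, and the fold change was 2.04 (SE 0.76, adjusted p = 0.205 in limma). ELAVL3, known as a neuronal RNA stability factor, had 8.46, 8.78, 8.55 and 8.87 in control and 6.45, 7.78, 7.68 and 5.12 in DM dogs, without overlap. Its fold change was −1.91 (SE 0.68, adjusted p = 0.186 in limma). ELAVL1, the ubiquitous member of that family, had 6.33, 7.54, 5.78 and 4.87 in control and 4.95, 7.56, 8.11 and 7.38 in DM dogs. Both groups were spread over nearly the same range, and the fold change of ELAVL1 was 0.87 (SE 0.80, adjusted p = 0.62 in limma), or −0.72 with scaling to the hybridization controls. RBM24, MBNL2, CELF2 and PABPN1, which were on the same list of regulators, had no member probe set.

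The DEAD and DEAH box helicases, which unwind RNA at each step from splicing to ribosome assembly, were the most numerous group. Of their 61 probe sets 34 were below 0, with a median of −0.22 that lay 0.14 to 0.33 below that of all probe sets in the 6 scalings and offsets but was 0.08 without quantile normalization. The DDX genes had 29 of 47 below 0 and a median of −0.23, and the DHX genes 9 of 14 above 0 and a median of 0.33. DDX5, the p68 helicase that also serves as a transcriptional coactivator, had 14.07, 14.28, 14.00 and 12.77 in control and 5.07, 10.92, 11.42 and 11.65 in DM dogs. All DM dogs were below all control dogs, and 0292 had less signal than the rest by more than 5 log2. The fold change of DDX5 was −4.01 (SE 1.20, adjusted p = 0.133 in limma) and −2.47 without 0292. The second DDX5 probe set had −0.07.

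DDX17, the paralogue and partner of DDX5, had 13.97, 13.88, 14.08 and 12.31 in control and 8.81, 10.92, 11.37 and 12.31 in DM dogs. D8 and 1111 were equal to 2 decimals, with D8 the higher of them, and 0292 was again the lowest. DDX17 had a fold change of −2.71 (SE 0.78, adjusted p = 0.123 in limma), and its other probe sets had −0.27 and 0.60. DHX15, which disassembles the spent spliceosome, was higher in 1 of its probe sets, with 10.57, 10.49, 10.86 and 12.65 in control and 12.67, 13.27, 13.61 and 12.91 in DM dogs. D8 was almost level with the lowest DM dog, and the other DHX15 probe set had a fold change of −0.62 against 1.97 in this one. DDX41 and DDX39B, helicases of the spliceosome and of mRNA export, had fold changes of −2.34 and −2.00.

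In cleavage and polyadenylation, 5 of 13 probe sets were above 0, with a median of −0.10. At an unadjusted p under 0.05, 4 had higher values (30.8%, against 7.8% of all and 8% with a single symbol), of which 2 were probe sets of NUDT21, and 1 had lower values (7.69%, against 8.91% and 11.5%). NUDT21, the subunit of cleavage factor I that favours distal poly(A) sites, had 10.13, 9.48, 10.68 and 12.39 in control and 12.85, 13.38, 13.24 and 13.03 in DM dogs (1595871_s_at). The DM dogs were close to each other and above all control dogs, with D8 nearest to them. The difference was 2.46 (SE 0.68, adjusted p = 0.113 in limma), and −0.12 with scaling to the hybridization controls. Without D8 the adjusted p of NUDT21 in limma was 0.0394, and over 19 alternatives it ran from 0.0129 to 0.927. A second NUDT21 probe set had 2.13 without overlap, and the third had −0.04.

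CPSF2, of the complex that reads the poly(A) signal, had 8.65, 8.58, 8.64 and 8.89 in control and 9.72, 10.72, 11.15 and 9.95 in DM dogs, without overlap and with D8 close to the other control dogs. Its fold change was 1.70 (SE 0.57, adjusted p = 0.17 in limma). CSTF3, of the cleavage stimulation factor, had 1.86 in 1604474_at and −1.30 and −1.34 in its other probe sets. PABPC1, the main cytoplasmic poly(A) binding protein, had 11.25, 11.01, 11.41 and 11.27 in control and 6.07, 11.16, 11.44 and 11.42 in DM dogs. The DM dogs other than 0292 lay within or just above the control range. The fold change of PABPC1 was −1.21 (SE 1.03, adjusted p = 0.59 in limma), and without 0292 it was 0.11.

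The exosome was measured in 8 probe sets, of which 5 were above 0 and 0 had an unadjusted p under 0.05 in limma, with a median of 0.28 that lay below the median of all probe sets in 2 of 6 scalings and offsets. EXOSC4, a subunit of its ring, had 7.14 to 8.28 in control dogs and 5.85, 5.83, 6.03 and 8.08 in DM dogs. The DM dogs other than 1111 were below all control dogs, and the fold change of EXOSC4 was −1.35 (SE 0.66, adjusted p = 0.324 in limma), against 1.16 in its other probe set. EXOSC8, also of the ring, had a fold change of −0.88 (SE 0.74, adjusted p = 0.586 in limma).

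RNA polymerase subunits had the lowest median of all roles, −0.65, with 15 of 21 probe sets below 0, and it lay 0.49 to 1.00 below the median of all probe sets in the 6 scalings and offsets. Relative to all probe sets it was −0.61 with only probe sets above the median level. With scaling to the hybridization controls the branch site group was lower still, at −2.47 against −2.42. At an unadjusted p under 0.05, 5 of the 21 polymerase probe sets were lower (23.8%, against 8.91% of all and 11.5% with a single symbol). Another 2 were higher (9.52%, against 7.8% and 8%). The median was −0.64 in the 3 probe sets of RNA polymerase I, −0.55 in the 12 of RNA polymerase II and −1.29 in the 6 of RNA polymerase III. POLR3F, a subunit of RNA polymerase III like POLR3K, had higher DM values in 1 of its probe sets. That probe set (1603800_x_at) had 5.10, 4.71, 4.67 and 4.89 in control and 5.79, 7.95, 7.90 and 7.45 in DM dogs, a fold change of 2.43 (SE 0.63, adjusted p = 0.0988 in limma). The control dogs were near the floor, so that it was 1.45 at an offset of 64 and 3.43 with none. The ending of its name marks probes that can bind other transcripts, and the other POLR3F probe set had −0.60.

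POLR2A, the large catalytic subunit of RNA polymerase II, had 8.75, 8.37, 8.80 and 8.63 in control and 6.85, 8.74, 8.57 and 8.56 in DM dogs (1586728_at). Apart from 0292 the DM dogs lay within the control range, and the fold change was −0.46 (SE 0.61, adjusted p = 0.746 in limma) against 1.71 in its other probe set. The small subunits POLR2F, POLR2G and POLR2I had lower DM values at an unadjusted p under 0.05, with −1.82, −2.16 and −2.76. POLR2G had 9.83, 9.58, 10.13 and 9.23 in control and 6.67, 7.91, 6.44 and 9.11 in DM dogs, where 1111 was only just below D8. In POLR2F and POLR2I the level of 1111 was above that of D8, so the groups overlapped.

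Several probe sets on the array report on the same gene, and they did not always move together. Of the 143 genes, 81 had 1 member probe set and 62 had 2 or more, with 176 probe sets in all. Within these 62 genes all fold changes were above 0 in 8, all below 0 in 15 and mixed in 39, and the median range within a gene was 1.46 log2. In 47 genes 1 or more probe sets had an unadjusted limma p under 0.05. NUDT21, POLR3K and RBM14 had 2 or more such probe sets in the same direction. SRSF10, an SR protein that represses splicing when dephosphorylated, had such probe sets in both directions, with fold changes from −2.05 to 1.79 over 7 probe sets. For these counts of genes the share over the whole array was not computed. They are not read as particular to the members. Probe sets of a gene share its transcripts and are not replicates. The files do not show which transcript end or isoform each of them reads.

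**Figure D3:**
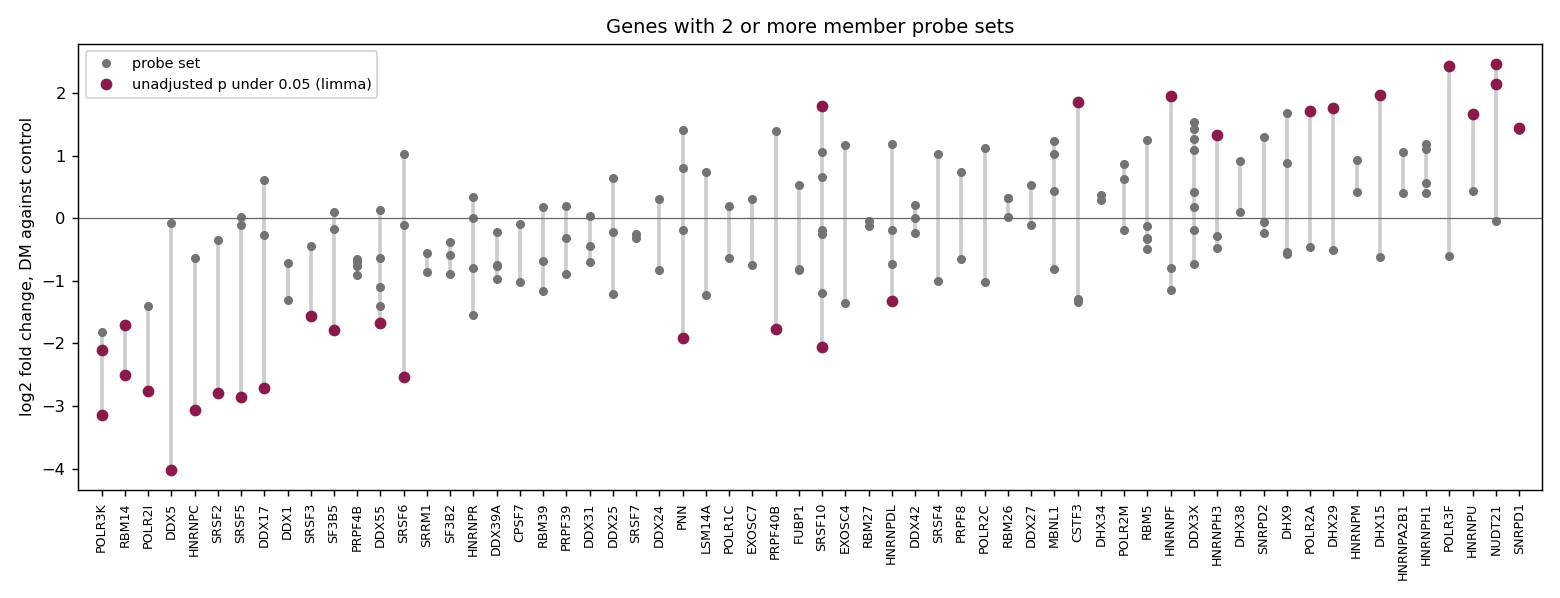
Log2 fold change, DM against control, for every probe set of the 62 genes with 2 or more member probe sets, sorted by the midpoint of each gene, with a grey line from the lowest to the highest probe set and dark points for an unadjusted limma p under 0.05. Lines cross 0 in 39 of the 62 genes, among them SRSF10 with dark points at −2.05 and 1.79.

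The fold changes varied with the level of signal. When all probe sets were divided into 5 bins of equal size by their mean level over the 8 dogs, the median fold change of all probe sets was 0.47 in the weakest bin and 0.36, −0.07, −0.37 and −0.24 in those above it. The medians of the members were 0.03 (29 probe sets), 0.25 (34), −0.25 (47), −0.66 (56) and −0.07 (91). The median of the members was below that of all probe sets in each bin but the strongest, where it was above. Of the 257 members, 91 were in the strongest bin and 29 in the weakest.

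**Figure D4:**
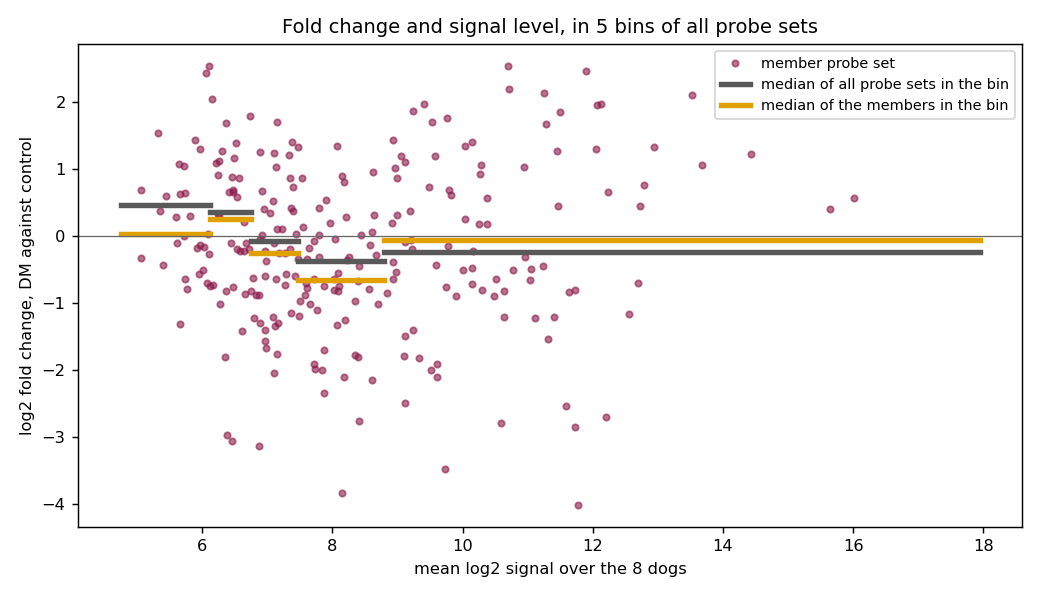
Log2 fold change, DM against control, plotted against the mean log2 signal of the 8 dogs for the 257 member probe sets, with grey bars for the median of all probe sets and yellow bars for the median of the members in each of 5 bins of signal. The grey bars run from 0.47 in the weakest bin to −0.37 and −0.24 in the strongest bins, and the yellow bars lie below them in all but the strongest bin.

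Single dogs stood apart in many of the members. The SD was larger in DM than in control dogs in 194 of the 257 members (75.5%, against 76.7% of all probe sets and 76.3% of those with a single symbol), with a median SD of 0.56 in control and 1.10 in DM dogs. DM dog 0292 had the lowest DM value in 102 of the 257 members and a median level of 7.65 over the members, against 8.13 to 8.17 in the other DM dogs and 8.27 to 8.34 in control dogs. Control dog D8 had the lowest control value in 94 members and the highest in 95. Among the 51 members with an unadjusted p under 0.05, D8 was nearer to the DM mean than to the mean of the other control dogs in 19, as against 2 for D5 and 0 for D6 and D7. For these counts of single dogs the share over all probe sets was not computed. They are not read as particular to the members. Without D8, 6 members passed an adjusted p of 0.05 in limma (2.33%, against 1.36% of all probe sets), which were HNRNPC, PABPC1L, POLR3K, U2AF1L4, NUDT21 and SREK1IP1. Without DM dog 1111, 7 passed (2.72%, against 1.99% of all), and these were HNRNPC, PABPC1L, POLR3K, SRSF2, POLR2I, SRSF10 and DDX47. Leaving out any other single dog gave 0.

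Other genes of splicing, export, decay and polyadenylation, which the symbol pattern does not take, were read from a list of 125 genes, of which 81 were measured. Of these 36 were above 0 and 45 below, with a median of −0.16, and 0 passed after adjustment in limma. At an unadjusted p under 0.05, 13 had higher values (16%, against 7.8% of all probe sets and 8% with a single symbol) and 9 had lower values (11.1%, against 8.91% and 11.5%). RBFOX1, a splicing regulator of heart, muscle and brain, had 9.31, 9.70, 9.58 and 9.19 in control and 6.90, 6.75, 8.36 and 5.57 in DM dogs. The groups were well apart in RBFOX1, with D8 close to the other control dogs, and the fold change was −2.55 (SE 0.66, adjusted p = 0.098 in limma, range 0.000887 to 0.338 over 20 alternatives). CASC3 of the exon junction complex, the spliceosomal protein CWC22 and PAIP2, an inhibitor of PABPC1, had the smallest p values in the other direction, with fold changes of 2.59, 2.84 and 2.83 and adjusted p values of 0.0881, 0.0921 and 0.0923. In all 3 the groups did not overlap, and in CWC22 and PAIP2 D8 was the highest control dog, at 12.14 and 12.47. The control dogs of CASC3 had 4.57 to 4.85, close to the floor of 4. Its fold change ran from 1.54 to 3.71 over 19 alternatives, with adjusted p values in limma of 0.025 to 0.304. Over 20 alternatives the fold change of CWC22 ran from 0.32 to 3.52 (adjusted p in limma 0.009 to 0.793). That of PAIP2 ran from 0.30 to 3.71 (0.00883 to 0.812).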

How the data were processed

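Total RNA of the left ventricle of 4 control and 4 DM dogs was hybridised to 1 Affymetrix Canine Genome Array each. Per the labels, the authors made 1 signal intensity per probe set with MAS5, and the deposited intensity values are on a linear scale. Each array had been scaled to a mean of 500 after trimming 2% at either end. RMA is named in the methods but is not in these values. Detection calls were not used here, and no array batch is given in the sources used here. The control and the DM samples lie in separate blocks of sample numbers in the deposit, with titles of different style. Whether their arrays were run together is not stated. A difference between such blocks could not be told apart from that between control and DM dogs. Of 23913 probe sets, 77 controls were left out of the tests.

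From these values, arrays were scaled to 500, quantile normalized, raised by an offset of 16 and taken to log2. DM and control dogs were compared with lmFit and eBayes of limma 3.58.1 in R 4.3.3, with two-sided p values adjusted over 23836 probe sets by Benjamini-Hochberg. A two-class t-test with pooled variance was run on the same values, without the variance stabilization that the methods name. It gave the p values for the criteria of the methods. Array measures were tested exactly, by permuting the group labels over all 70 possible assignments. Figures were drawn with matplotlib 3.10.9. The steps were tested on simulated data.

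Of the 257 members, 238 had their symbol matched by gene identifier to RefSeq. The members, roles and lists were chosen with earlier results of these data known. Genes were named by a rule: members with an adjusted p under 0.05, the 2 smallest p in each role, and, for 14 regulators of which 10 had a member, the probe set with the highest mean. Of the other RNA processing genes the 4 with the smallest p were named. Cell type markers and other RNA processing genes were each read in the probe set with the highest mean. Replicate numbers follow the order of deposit and pair no dogs. Alternatives were no quantile normalization, median centring, cyclic loess, scaling to the hybridization controls, no offset and an offset of 64, only probe sets above the median level, array weights, a trended prior variance, 1 probe set per gene, leaving out probe sets named _x_at, _s_at or _a_at, and leaving out each dog. Leaving out D8 and 0292 together was added after the data were seen.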

Additional observations from a re-analysis of the deposited data

Results flagged for a closer look

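In 72 groups of 4 values, for the named genes and the measures of the arrays, 11 had 1 dog far from the others by Dixon's test at its 95% critical value, where chance gives about 1 in 20. D8 was that dog in 5 of them, 0292 in 4 and 1087 and 1111 in 1 each. Among control dogs, D8 had 4.91 log2 for U2AF1L4 (the others 8.70 to 8.95), 4.56 for DDX47 (4.92 to 4.94), 12.31 for DDX17 (13.88 to 14.08), 5.43 for SRSF1 (8.06 to 8.57) and a mean log2 deposited signal of 15.77 for the hybridization controls (13.09 to 13.36). Among DM dogs, 0292 had 13.95 for MBNL1 (the others 15.41 to 15.42), 6.07 for PABPC1 (11.16 to 11.44), 6.85 for POLR2A (8.56 to 8.74) and 5.07 for DDX5 (10.92 to 11.65). DM dog 1111 had 8.08 for EXOSC4 (5.83 to 6.03) and 1087 had 5.61 for SRSF1 (7.74 to 7.99). For DDX47 the distance of D8 from the other control dogs was small beside that of the DM dogs, which had 6.75 to 7.69. What sets these dogs apart was not tested.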

How the results depend on the processing

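The call of 0 members at an adjusted p of 0.05 depended on the settings. Members called higher were 1 with 1 probe set per gene, 8 with array weights, 1 with an offset of 64, 8 with a trended prior variance, 12 without D8 and 0292 together and 0 to 2 when each dog was left out. Members called lower were 1, 12, 4, 9, 10 and 0 to 6 under these, 3 with median centring and 104 with scaling to the hybridization controls. In both directions together these were 40.5% of the members with the hybridization controls, against 32.2% of all probe sets, 1.17% against 1% with median centring, 7.78% against 3.87% with array weights, 6.61% against 3.41% with a trended prior variance, 1.95% against 1.87% with an offset of 64, 1.4% against 0.688% with 1 probe set per gene and 8.56% against 3.99% without D8 and 0292. For the counts that follow, the share over all probe sets was not computed under each setting. They show how the settings moved the counts and are not read as particular to the members. At an unadjusted p under 0.05, 31 members were higher with array weights, 31 with cyclic loess, 7 with median centring and 32 without quantile normalization. Higher ones were 0 with scaling to the hybridization controls (144 lower), 40 without D8 and 0292 and 16 to 37 with each dog left out (20 to 38 lower). By the criteria of the methods, 7 were higher with 1 probe set per gene, 4 with median centring, 8 without quantile normalization, 0 with the hybridization controls, 22 without D8 and 0292 and 3 to 18 with each dog left out. Lower ones were 5 with 1 probe set per gene, 31 with the hybridization controls, 14 without D8 and 0292 and 4 to 17 with each dog left out. After adjustment of the two-class t-test the 1 call became 0 with cyclic loess, median centring, no offset, no quantile normalization or an offset of 64. The count was also 0 with only probe sets above the median level or the hybridization controls, 17 without D8 and 0292, and 0 to 8 with each dog left out. Of the other RNA processing genes, 7 were higher with median centring (16 lower) and 0 with the hybridization controls (49 lower). Lower ones were 5 without probe sets named _x_at, _s_at or _a_at, 15 without D8 and 0292 and 5 to 11 with each dog left out. The median of the whole list was −0.43 with 1 probe set per gene, −0.49 with median centring, 0.10 without quantile normalization and −1.91 with the hybridization controls. With the hybridization controls the medians were −2.47 (branch site), −1.90 (CELF, MBNL, ELAVL and FUBP), −1.66 (cleavage and polyadenylation), −1.79 (helicases), −2.17 (exosome), −1.80 (hnRNPs), −1.75 (RBM), −2.42 (RNA polymerases), −1.93 (snRNPs) and −2.06 (SR). With median centring they were −0.25 (CELF, MBNL, ELAVL and FUBP), −0.51 (helicases), −0.54 (exosome), −0.27 (hnRNPs) and −0.50 (SR). Without quantile normalization they were 0.084 (helicases), 0.39 (RBM), −0.31 (RNA polymerases) and 0.093 (SR). With 1 probe set per gene they were −0.85 (branch site), −0.52 (helicases), 0.37 (RBM) and −0.50 (SR). With only probe sets above the median level they were −0.66 (cleavage and polyadenylation) and −0.56 (helicases). Without D8 and 0292 they were −0.17 (CELF, MBNL, ELAVL and FUBP), 0.35 (RBM) and −0.47 (SR). Array weights gave −0.023 (CELF, MBNL, ELAVL and FUBP), cyclic loess 0.34 (RBM) and no offset −0.98 (RNA polymerases). With each dog left out the medians ran from −0.78 to −0.33 (branch site), −0.036 to 0.44 (CELF, MBNL, ELAVL and FUBP), −0.64 to 0.16 (cleavage and polyadenylation), −0.31 to 0.0056 (helicases), 0.015 to 0.44 (RBM), −1.01 to −0.59 (RNA polymerases) and −0.47 to −0.21 (SR). Of the named genes, the sign turned with the hybridization controls in ELAVL1 (−0.72), HNRNPF (−0.64), MBNL1 (−1.01), NUDT21 (−0.12), RBM34 (−0.29), SF3B6 (−0.43) and SNRPB2 (−0.46), in POLR2A with cyclic loess (0.0070), in SRSF1 without quantile normalization (0.13) and in PABPC1 without D8 and 0292 (0.13). Leaving out each dog gave SRSF1 from −1.09 to 0.21 (0.21 without 1087) and PABPC1 from −1.68 to 0.11 (0.11 without 0292). PABPC1L was called in 9 of 20 alternatives, SRSF2 in 6 of 20, HNRNPC and POLR3K in 8 of 18 and NUDT21 and DDX47 in 5 of 19. What made the results differ between settings was not tested. No paired analysis was possible because the labels give no numbers that the groups share.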
